A study of Homo sapiens with 8 samples.

Results

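The genes described here encode the proteins that start, carry out and end protein synthesis on cytosolic ribosomes: 46 genes for the initiation factors eIF1 to eIF6, the elongation factors, the release factors and the cytoplasmic poly(A)-binding proteins. They were taken as a list of gene symbols, and their ac4C peaks were found by the position of each Ensembl identifier in the GRCh38 gene spans. Of the 46 genes, 26 had a peak in at least 1 list under a unique identifier, among 9046 identifiers with a peak in all, of which 83.5% could be given a gene name by the same rule. A further 5 genes had a peak in their span whose identifier could not be settled, and 15 had no peak.

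N4-acetylcytidine (ac4C) is an acetylated cytidine that the acetyltransferase NAT10 writes into ribosomal RNA, transfer RNA and messenger RNA. RNA captured by an antibody (IP) was sequenced beside input RNA in SiHa, a human papillomavirus-positive cervical carcinoma line, and in cells labelled KONAT10SiHa, read as SiHa with NAT10 knocked out. Each of the 4 groups (SiHa input, SiHa IP, KONAT10SiHa input, KONAT10SiHa IP) had 2 biological replicate libraries, and how the knockout was made and whether it is 1 clone are not stated in the labels. The deposited values used here are 1 peak list for each population. The list whose name carries an added K was read as that of the knockout, which no label states in words. A list gives no value for a single library and no read count, so depth is unknown, replicate spread cannot be computed, and no test between conditions was possible. The loss of NAT10 could not be checked from peaks either, since they carry no expression level. A missing peak is not a measured absence of ac4C, since expression and the threshold for calling a peak both bear on it. Shares carry 95% Clopper-Pearson (exact binomial) intervals, which cover counting alone, and peaks of 1 gene are not independent of each other.

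Translation begins when eIF2 brings the initiator tRNA to the small ribosomal subunit with eIF1, eIF1A, eIF3 and eIF5, while eIF4E, eIF4G and eIF4A bind and unwind the capped end of the messenger RNA. eIF5B then joins the subunits, eEF1A and eEF2 drive elongation, and eRF1 and eRF3 release the finished chain. Many messenger RNAs of this machinery begin with a cytidine and a run of pyrimidines, the 5′ terminal oligopyrimidine tract through which mTOR controls their translation.

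Among the translation factors, that start sequence was frequent. A promoter entry at the start of the RefSeq span was at hand for 36 of the 46 genes. In 9 of these 36 (25.0%) the start base was C with at least 4 pyrimidines (C or T) directly after it, against 632 of 13819 protein-coding genes (4.57%). Only the strand that reads as the RNA does was searched, and a match describes letters, not a mapped transcript start. The 9 starts are shown because they were more common here than over all protein-coding genes, though the other 27 of the 36 lacked such a start. Each runs from 10 bases before the RefSeq start to 20 bases from it, in RefSeq sequence of GRCh38.p14, with the start base and its pyrimidine run in capitals.
EEF2 (chr19:3985444-3985473, minus strand): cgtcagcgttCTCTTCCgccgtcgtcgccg
EIF3F (chr11:7987327-7987356, plus strand): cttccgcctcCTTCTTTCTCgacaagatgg
EEF1A1 (chr6:73521013-73521042, minus strand): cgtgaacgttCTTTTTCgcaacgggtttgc
EIF4B (chr12:53006446-53006475, plus strand): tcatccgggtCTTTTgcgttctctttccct
EIF3M (chr11:32583821-32583850, plus strand): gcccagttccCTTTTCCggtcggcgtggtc
EIF3K (chr19:38619178-38619207, plus strand): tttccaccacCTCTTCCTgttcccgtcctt
EIF4A2 (chr3:186783567-186783596, plus strand): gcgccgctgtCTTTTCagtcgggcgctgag
EIF3D (chr22:36529147-36529176, minus strand): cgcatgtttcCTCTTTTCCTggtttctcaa
EIF2S3 (chrX:24054946-24054975, plus strand): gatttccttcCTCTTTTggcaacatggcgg

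These 9 genes did not share 1 peak pattern. EEF2 and EIF3F had peaks in both lists, EEF1A1 and EIF4B in SiHa alone, EIF3M in the knockout alone, EIF3D and EIF2S3 in neither, and EIF3K and EIF4A2 were unsettled. Over all genes with such a start and a named SiHa peak, 157 of 233 (67.4%, 61.0 to 73.4%) had no knockout peak, close to 2711 of 3847 (70.5%) among genes without it.

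In SiHa cells, 23 of the 46 translation factors (50%) had a named peak, and in the knockout 14 (30.4%). The shares over all protein-coding RefSeq genes, expressed or not, were 28.6% and 14.6%. Of the 23 genes with a SiHa peak, 12 (52.2%, 30.6 to 73.2%) had no knockout peak, and 73.0% of all 7291 genes with a SiHa peak had none. The upper bound of 73.2% lies just above the share of the whole list, and the reading depends on which knockout peaks count. With knockout peaks at a false discovery rate of at most 0.05, 13 of 23 (56.5%, 34.5 to 76.8%) had none, and the 77.9% of all genes lies above that interval. The shares of all genes are over every identifier with a peak, named or not, while the translation factors are named protein-coding genes. Of named protein-coding genes with a SiHa peak and a promoter entry, but without the start sequence above, 70.5% had no knockout peak. For named genes alone, the share at the cutoff of 0.05 was not computed. Of the 14 genes with a knockout peak, 3 (21.4%, 4.66 to 50.8%) had no SiHa peak, beside 47.1% over all genes.

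**Figure D1:**
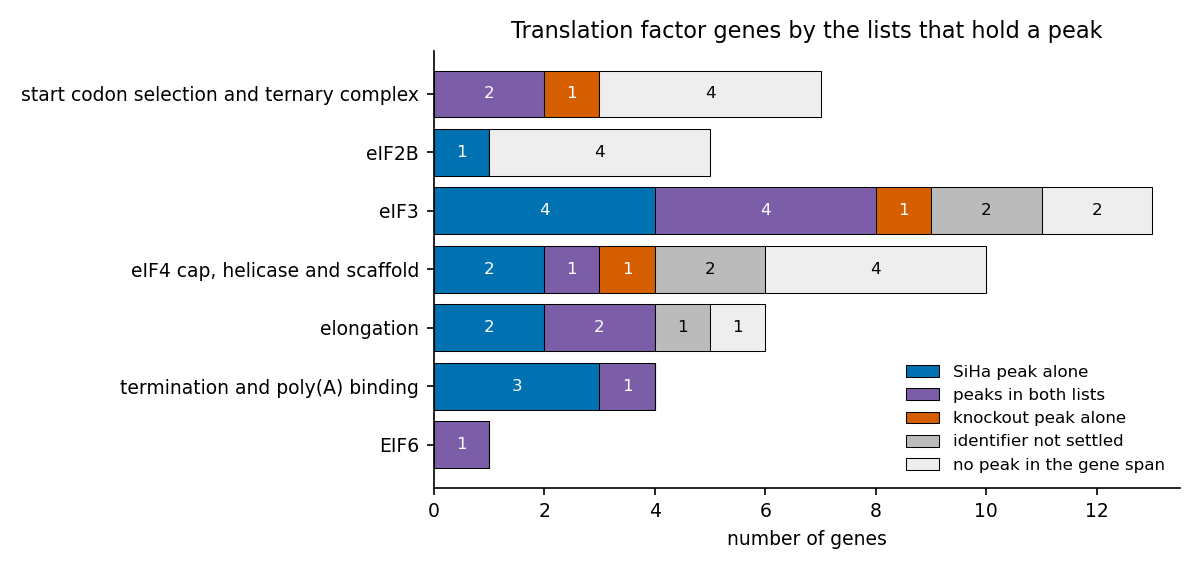
Number of translation factor genes (horizontal axis) by role and by the lists that hold a peak. The eIF3 subunits have 4 genes with a SiHa peak alone, 4 with peaks in both lists and 1 with a knockout peak alone. The eIF2B genes have 1 with a SiHa peak and 4 with none, at a share of genes with a SiHa peak near the 28.6% of protein-coding genes.

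The SiHa peaks of translation factors had smaller p-values than the list as a whole. The p-value of each peak is the authors', and the fold given for knockout peaks is likewise the authors' own, with its reference unstated. Over 39 SiHa peaks the median −log10 p was 16.3 (quartiles 5.72 and 61.5), beside 6.05 (2.80 and 18.9) over all 12924. In 2 of the 39 the p was listed at 0, as in 309 of all peaks. The 21 knockout peaks had a median −log10 p of 8.40 beside 5.45, but a median fold of 10.3 beside 12.8. There were 1.7 SiHa peaks per gene with a peak, beside 1.77 over all genes, and 1.5 knockout peaks per gene beside 1.22.

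**Figure D2:**
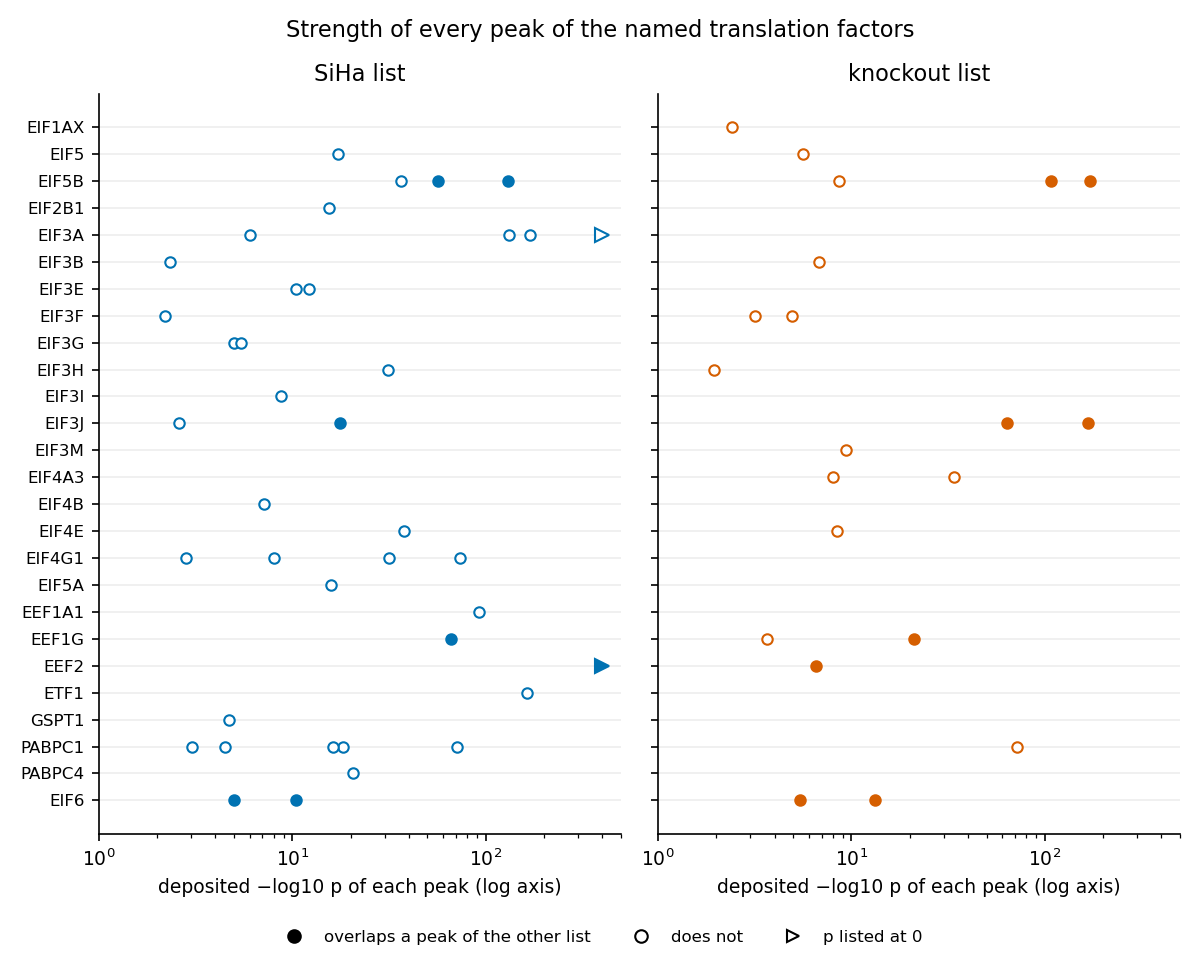
Deposited −log10 p (horizontal log axes) of every SiHa (left) and knockout (right) peak of the 26 translation factors with a named peak. Filled symbols overlap a peak of the other list, and triangles at the right edge are the EIF3A and EEF2 peaks with a p listed at 0.

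Overlap was counted from 1 shared base between blocks of the same strand. Of the 39 SiHa peaks of translation factors, 7 (17.9%, 7.54 to 33.5%) met a knockout peak, beside 6.76% of all SiHa peaks. Of the 21 knockout peaks, 8 (38.1%, 18.1 to 61.6%) met one of SiHa, beside 19.2%. The overlaps lay in 5 genes: EIF5B, EIF6, EIF3J, EEF1G and EEF2. That is 5 of the 11 translation factors with peaks in both lists (45.5%, 16.7 to 76.6%), beside 779 of 1971 such genes (39.5%). In the other 6, EIF5, EIF3B, EIF3F, EIF3H, EIF4E and PABPC1, the lists marked different places.

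**Figure D3:**
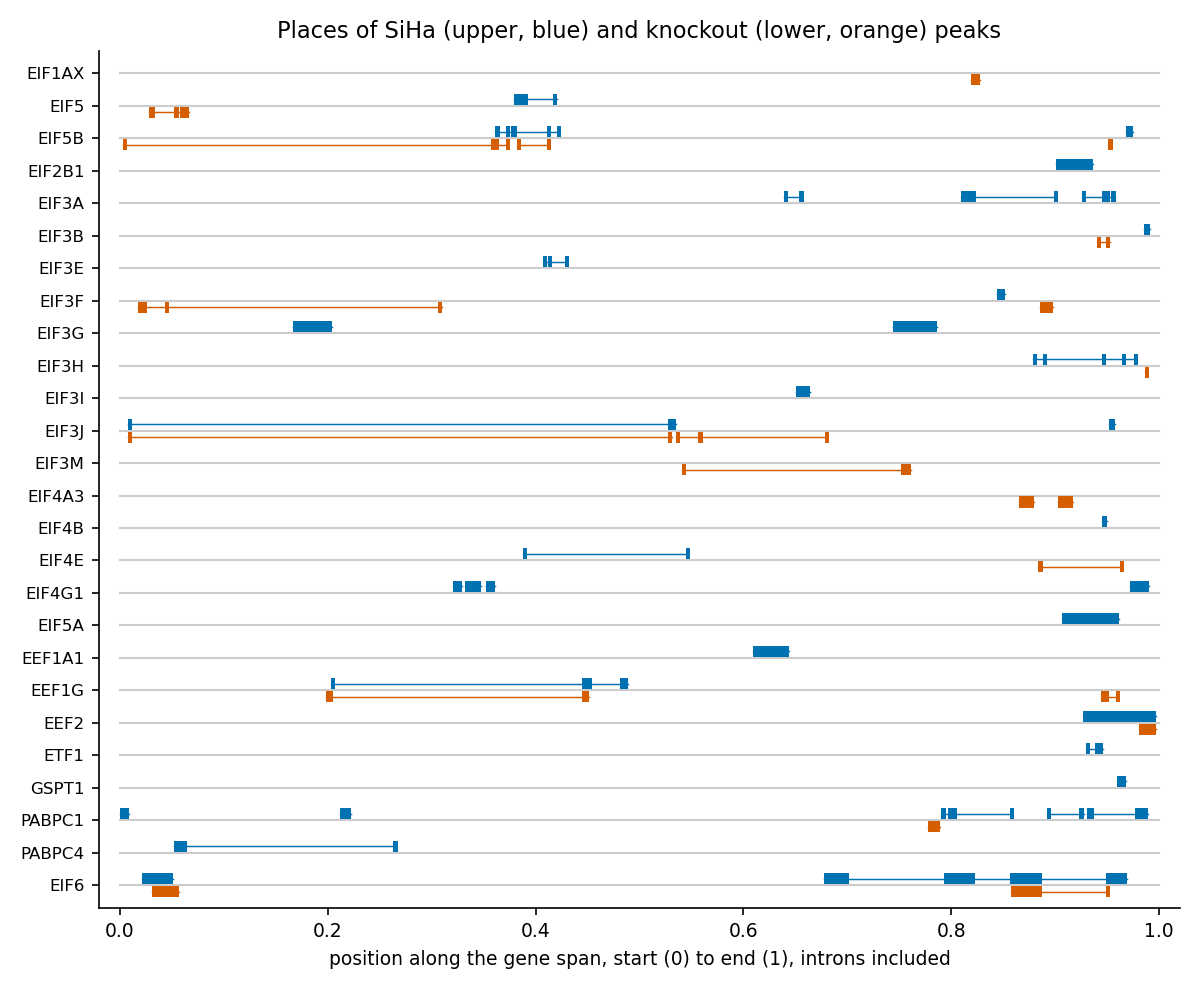
Peak blocks along each gene span (horizontal axis, from gene start at 0 to gene end at 1, introns included), SiHa above and knockout below each line; thin lines join the blocks of 1 peak. Overlapping peaks appear in EIF5B, EIF3J, EEF1G, EEF2 and EIF6, and in the other genes with both colours the peaks are apart.

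Among the factors that select the start codon and join the subunits, 2 of 7 genes had peaks in both lists, 1 in the knockout alone and 4 in neither. The share with a SiHa peak, 2 of 7, was near the 28.6% of protein-coding genes. EIF5B, the GTPase of subunit joining (ENSG00000158417, chromosome 2, 99337389 to 99401326), had the most knockout peaks of any translation factor. Its SiHa peaks spanned 99360492 to 99361389 (p 2e-57), 99361449 to 99364311 (p 1e-130) and 99399318 to 99399708 (p 2.5e-37). Its knockout peaks spanned 99337563 to 99361209 (fold 8.14, p 1e-108), 99361809 to 99363813 (fold 5.17, p 1e-171) and 99398220 to 99398400 (fold 38.5, p 2.3e-09). The knockout peak of fold 8.14 shared 120 bases with a SiHa peak, and all 181 bases of the next one lay in the SiHa peak with the smallest p. Near the gene end the peaks of the lists did not touch. EIF5, which triggers GTP hydrolysis on eIF2 (ENSG00000100664, chromosome 14), had a SiHa peak of 180 bases at 103338334 to 103338775 (p 6.3e-18). Its knockout peak, also of 180 bases, lay at 103334541 to 103334949, 304 bases from the gene start (fold 6.41, p 2.5e-06). EIF1AX, which encodes eIF1A (ENSG00000173674), had a knockout peak alone, at chromosome X, 20127509 to 20127658, with a fold of 4.49 and a false discovery rate of 0.049. The scanning factor EIF1 and the 3 eIF2 subunit genes EIF2S1, EIF2S2 and EIF2S3 had no peak in either list.

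The eIF2B complex, which recharges eIF2 with GTP and is the point where the integrated stress response acts, had a peak in 1 of its 5 genes, beside 28.6% of protein-coding genes with a SiHa peak. EIF2B1 (ENSG00000111361) had a SiHa peak of 481 bases at chromosome 12, 123621245 to 123621725 (p 3.2e-16). EIF2B2, EIF2B3, EIF2B4 and EIF2B5 had no peak in either list.

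The eIF3 complex, the scaffold of the preinitiation complex, was the largest role group, with 13 genes. It held the most peaks, 14 in SiHa and 7 in the knockout. The SiHa peaks lay in 8 of the 13 genes, beside 28.6% of protein-coding genes. Over all genes with a SiHa peak there were 1.77 SiHa peaks per gene. Of the 8 eIF3 genes, 4 had no knockout peak, beside 73.0% of all genes with a SiHa peak. EIF3A, the largest core subunit (ENSG00000107581, chromosome 10), had 4 SiHa peaks and none in the knockout. Its peaks lay at 119049865 to 119050670 (p listed at 0), 119038324 to 119042657 (p 1e-169), 119035887 to 119037156 (p 1e-132) and 119035647 to 119035827 (p 9.8e-07). On a scale from 0 at the gene start to 1 at the gene end, the 4 peaks lay between 0.64 and 0.96. EIF3E, another subunit (ENSG00000104408, chromosome 8), had 2 neighbouring SiHa peaks of 180 bases, at 108228291 to 108229148 (p 6.3e-13) and 108229208 to 108229387 (p 4e-11). EIF3I, a subunit built of WD repeats (ENSG00000084623), had a SiHa peak at chromosome 1, 32231366 to 32231545 (p 2.1e-09). EIF3G, an RNA-binding subunit, had 2 SiHa peaks with p-values of 3.7e-06 and 9.8e-06.

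EIF3J, a loosely bound subunit that acts in start site selection and ribosome recycling (ENSG00000104131, chromosome 15, 44537147 to 44562803), had the highest knockout fold of all translation factors. Its SiHa peak at 44537352 to 44550876 (270 bases, p 2.5e-18) and its knockout peak at 44537352 to 44550786 (180 bases, fold 56.4, p 2e-64) began at the same base and crossed the same gap. All 180 bases of the knockout peak lay in the SiHa peak. Another knockout peak, at 44550876 to 44554615 (fold 32.7, p 1e-167), touched the end of the SiHa peak by 1 base, and a SiHa peak at 44561569 to 44561718 (p 0.0025) had no partner. At this place the knockout p was smaller than the SiHa p, but p-values of lists with unknown depths are not on 1 scale.

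In the other eIF3 subunits with peaks in both lists, the peaks lay apart. EIF3B, the subunit that contacts eIF3j (ENSG00000106263, chromosome 7), had a SiHa peak at 2380355 to 2380505 (p 0.0046) and a knockout peak at 2379154 to 2379485 (fold 30.8, p 1.7e-07). EIF3F, a subunit with an MPN domain (ENSG00000175390, chromosome 11), had a SiHa peak at 7999587 to 7999707 (p 0.0066). Its knockout peaks lay at 7987595 to 7991831, 258 bases from the gene start (fold 4.27, p 0.00066), and at 8000186 to 8000365 (fold 23.1, p 1.1e-05). EIF3H, the other MPN subunit (ENSG00000147677, chromosome 8), had a SiHa peak of 5 blocks and 599 bases between 116644913 and 116657218 (p 4e-32). Its knockout peak at 116643626 to 116643806 had a fold of 3.85 and a false discovery rate of 0.526, the only knockout peak of a translation factor above 0.05, beside 25.0% of all knockout peaks. EIF3M, a subunit with a PCI domain (ENSG00000149100), had a knockout peak alone, of 300 bases between 32595970 and 32600910 on chromosome 11 (fold 33.3, p 4.7e-10). EIF3C and EIF3D had no peak, and EIF3C has a near-identical copy with which reads could be shared.

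The eIF4 group brings the capped messenger RNA to the ribosome. EIF4G1, the scaffold that joins the cap-binding protein to eIF3 (ENSG00000114867, chromosome 3), had 4 SiHa peaks and none in the knockout. The strongest lay at 184334790 to 184335149, 209 bases from the gene end (p 5e-74), and the others at 184321913 to 184322093 (p 2.5e-32), 184321495 to 184321824 (p 1e-08) and 184321255 to 184321435 (p 0.0015). The 3 weaker peaks lay together between 0.32 and 0.36 along the span, and the strongest at 0.98. EIF4E, the cap-binding protein (ENSG00000151247, chromosome 4), had a SiHa peak at 98901909 to 98909814 (211 bases, p 2.5e-38) and a knockout peak elsewhere, at 98881101 to 98885060 (181 bases, fold 20.5, p 4e-09). EIF4B, which stimulates the eIF4A helicase (ENSG00000063046), had a SiHa peak alone, at chromosome 12, 53040261 to 53040410 (p 7.2e-08). EIF4A3, the helicase of the exon junction complex (ENSG00000141543, chromosome 17), had 2 knockout peaks and none in SiHa, at 80135423 to 80135603 (fold 31.8, p 1.6e-34) and 80135902 to 80136082 (fold 35.9, p 9.8e-09). EIF4A1, EIF4G2, EIF4G3 and EIF4H had no peak in either list.

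Among the elongation factors, EEF2, the translocase (ENSG00000167658, chromosome 19, 3976056 to 3985463), had 1 peak in each list, and both ended 30 bases before the gene end. The SiHa peak ran over 657 bases from 3976086 to 3976742, with a p listed at 0. The knockout peak covered its last 150 bases, from 3976086 to 3976235, with a p of 2.8e-07 and a fold of 1.92, the lowest of any translation factor. EEF1A1, which delivers aminoacyl-tRNA (ENSG00000156508), had a SiHa peak alone, at chromosome 6, 73517633 to 73517812 (p 1e-92). EIF5A, which resolves stalled ribosomes (ENSG00000132507), had a SiHa peak alone, at chromosome 17, 7311954 to 7312253, 210 bases from the gene end (p 1.3e-16). EEF1G, a subunit of the exchange factor of eEF1A (ENSG00000254772, chromosome 11), had a SiHa peak at 62566898 to 62570990 (p 5e-67). Its knockout peaks lay at 62567435 to 62571050 (fold 3.16, p 1e-21), with 120 bases shared, and at 62560190 to 62560397 (fold 2.93, p 0.00022). Another identifier, ENSG00000255508, whose peaks also reach the neighbouring TUT1, listed these 3 peaks with nearly the same positions, so the reads of EEF1G cannot be given to 1 identifier. EEF1B2 had no peak. EEF1A1 and several initiation factors have processed pseudogenes or close paralogs, and how reads shared with these were counted is not given in the sources used here.

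All 4 genes of termination and poly(A) binding had a SiHa peak, beside 28.6% of protein-coding genes, and 1 of them also had a knockout peak. The other 3 had none, near the 73.0% of all genes with a SiHa peak. ETF1, which encodes the release factor eRF1 (ENSG00000120705), had a SiHa peak of 330 bases at chromosome 5, 138508096 to 138508706, ranked 577 of 12924 by p (p 1e-164). GSPT1, which encodes its partner eRF3a (ENSG00000103342), had a wider but weaker SiHa peak of 389 bases at chromosome 16, 11869684 to 11870072 (p 1.9e-05). PABPC4, a further poly(A)-binding protein (ENSG00000090621), had a SiHa peak near its start, between 39572572 and 39575954 on chromosome 1 (211 bases, p 3.2e-21). On the opposite strand an identifier in the span of PABPC4-AS1 had a SiHa peak that shared bases with it, at 39572569 to 39573145 (p 6.3e-17). PABPC1, the main cytoplasmic poly(A)-binding protein (ENSG00000070756, chromosome 8, 100702916 to 100722088), had 5 SiHa peaks, the most of any translation factor. The strongest of these peaks, at 100703124 to 100704237, lay 208 bases from the gene end (p 6.3e-72). The others lay at 100705633 to 100706930 (p 5e-19), 100717817 to 100718026 (p 5e-17), 100704297 to 100704981 (p 3.3e-05) and, at the gene start, 100721913 to 100722092 (p 0.00095). The knockout peak of PABPC1, at 100706959 to 100707169 (fold 47.9, p 5e-73), lay beside the SiHa peak that ends at 100706930 and overlapped none.

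EIF6, which keeps the large subunit from joining too early (ENSG00000242372, chromosome 20, 35278906 to 35284772), had 2 peaks in each list, and each overlapped one of the other list. EEF2 was the other gene without a peak outside the overlap. Near the gene start, a SiHa peak at 35284471 to 35284650 (p 1e-05) and a knockout peak at 35284442 to 35284590 (fold 5.01, p 6.3e-14) shared 120 bases. Near the gene end, a SiHa peak of 626 bases between 35279085 and 35280798 (p 4e-11) held all 180 bases of a knockout peak at 35279204 to 35279742 (fold 10.3, p 3.7e-06). When at least 50% of the bases of both peaks had to be shared, 2 of the 7 overlapped SiHa peaks remained, that of EIF3J and the start peak of EIF6. The share was then 5.13% (0.627 to 17.3%), an interval that holds the 3.15% of all SiHa peaks, so the higher share of overlapped peaks was not seen under this rule.

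Of the 21 knockout peaks, 4 (19.0%, 5.45 to 41.9%) had values on a series that 45.9% of all knockout peaks share. In this series the fold is close to a whole multiple of 2.56, and the p is close to a value fitted for that multiple. These were the EIF3B peak, the EIF3F peak of fold 23.1, the EIF4A3 peak of fold 35.9 and the EIF5B peak of fold 38.5. All overlapping knockout peaks lay off this series. Without the series EIF3B counts as a gene with a SiHa peak alone, and 13 of 23 translation factors (56.5%) then had no knockout peak. Over all genes with a SiHa peak, named or not, the share was 82.4%, which lies above the interval of 34.5 to 76.8%.

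**Figure D4:**
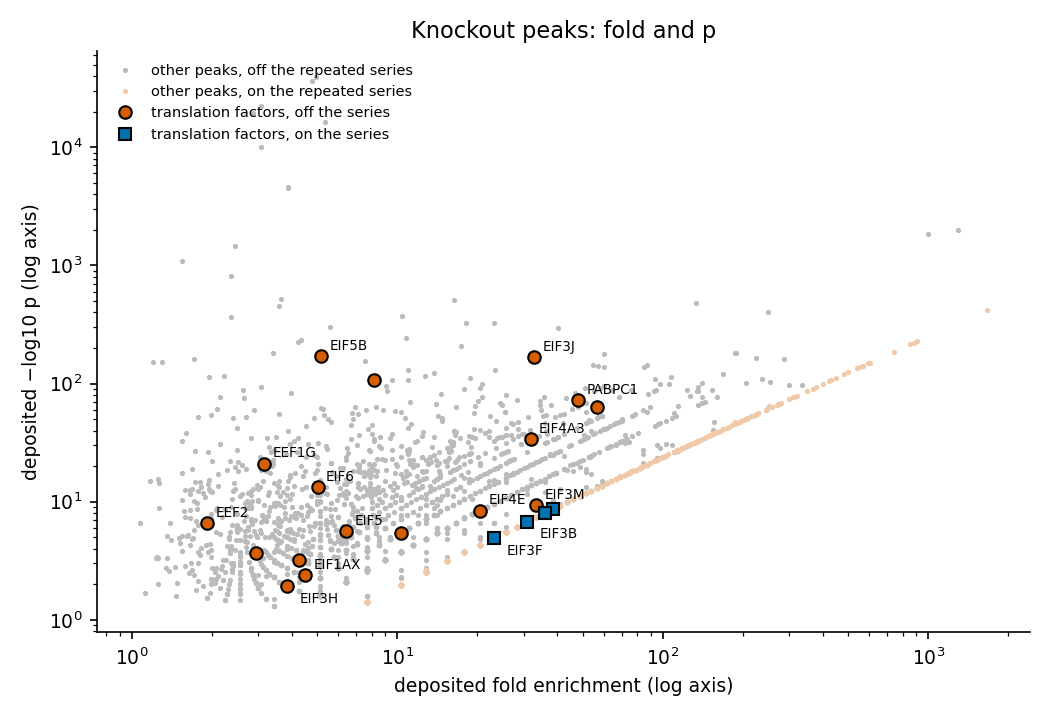
Deposited fold enrichment and −log10 p (log axes) of all 4557 knockout peaks, with the 21 peaks of translation factors marked and the strongest peak of each gene named. The 4 squares lie on the repeated series, and EIF5B, EIF3J and PABPC1 have the smallest p-values among translation factors.

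Several-block peaks, which span a gap in the genome, were frequent in this set: 17 of 39 SiHa peaks (43.6%, 27.8 to 60.4%) beside 25.2% of all, and 12 of 21 knockout peaks (57.1%, 34 to 78.2%) beside 31.3%. Of peaks that began within 500 bases of the gene start there were 3 of 39 SiHa peaks (7.69%, 1.62 to 20.9%) beside 6.04% in all named genes, and 5 of 21 knockout peaks (23.8%, 8.22 to 47.2%) beside 7.09%. The knockout peaks at gene starts belonged to EIF5, EIF5B, EIF3F, EIF3J and EIF6, and the SiHa peaks to EIF3J, EIF6 and PABPC1. In EIF5B, EIF3F and EIF3J the knockout peak had further blocks, across gaps, deeper in the gene. Of peaks that ended within 500 bases of the gene end there were 6 of 39 SiHa peaks (15.4%, 5.86 to 30.5%) beside 11.0%, and 2 of 21 knockout peaks (9.52%, 1.17 to 30.4%) beside 8.96%. Distances are in the genome, with introns included, since no exons were at hand.

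**Figure D5:**
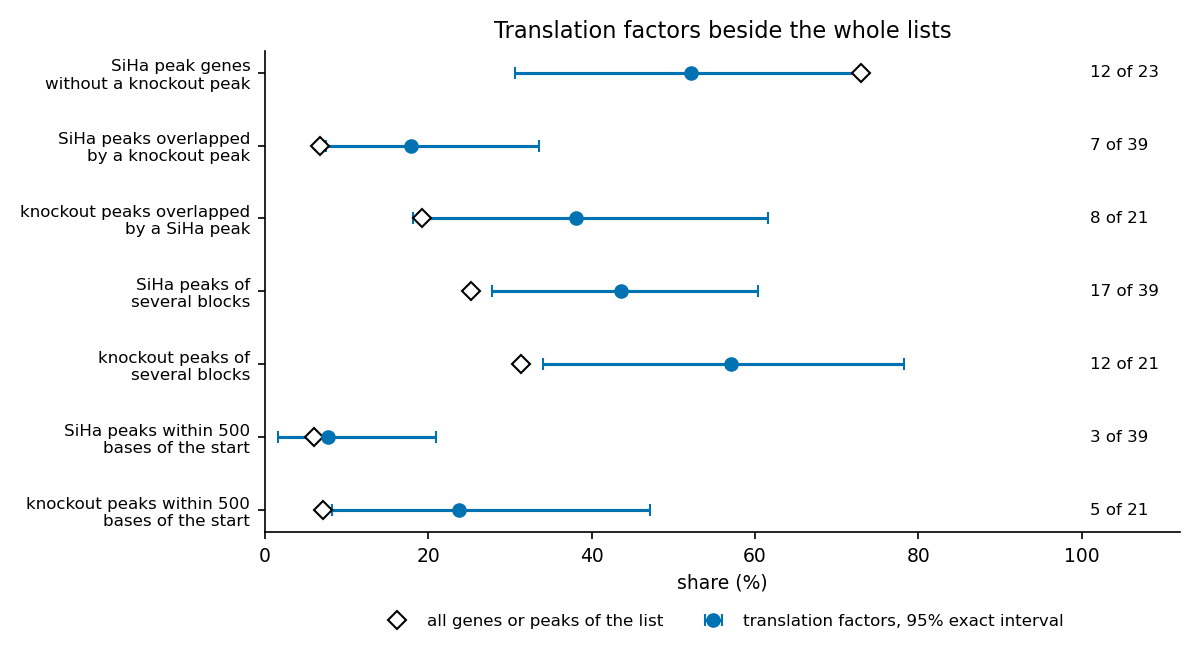
Shares (horizontal axis, percent) in translation factors with 95% exact binomial intervals, beside the share over all genes or peaks of the lists (diamonds). The intervals of several-block peaks and of knockout peaks at gene starts lie above the diamonds, and those of the other shares reach them or, for overlapped SiHa peaks counted from 1 shared base, begin just above.

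Of the 5 unsettled genes, EIF4E2 and EIF3K had peaks across the gene start. EIF4E2, the cap-binding protein 4EHP, had a SiHa peak of 270 bases from 232550620 to 232550950 on chromosome 2 (ENSG00000135930, p 1.3e-83) that began 69 bases before the RefSeq start. EIF3K had a SiHa peak from 38619112 to 38619231 on chromosome 19 (ENSG00000178982, p 7.6e-05) that began 76 bases before the RefSeq start, and a knockout peak at 38619201 to 38619320 (fold 8.97, p 0.00066) that shared 31 bases with it. Because of the bases before the start, 82.3% and 68.3% of the peak bases of these identifiers lay in the spans, below the 90% asked for. The sequence under the start of either SiHa peak is shown because both begin well before the RefSeq start, from the first base of the peak in lower case to 30 bases past the start in capitals.
EIF4E2 (chr2:232550620-232550718, plus strand): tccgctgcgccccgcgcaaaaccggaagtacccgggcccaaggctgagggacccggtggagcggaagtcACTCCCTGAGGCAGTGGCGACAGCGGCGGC
EIF3K (chr19:38619112-38619217, plus strand): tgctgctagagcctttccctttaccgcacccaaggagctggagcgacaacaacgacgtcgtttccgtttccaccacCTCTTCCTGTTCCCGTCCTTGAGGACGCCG

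In the span of EIF3L, 2 identifiers on the same strand had SiHa peaks on chromosome 22, of 300 bases in 2 blocks from 37875988 to 37877949 (p 1e-161) and of 301 bases in 1 block from 37877646 to 37877946 (p 1e-154). In that of EEF1D, 2 identifiers on opposite strands had SiHa peaks at different places (p 2.5e-39 and 2.5e-11). The only peak in EIF4A2, a knockout peak of 111 bases at chromosome 3, 186787639 to 186787749 (fold 2.93), also lay in the span of the small nucleolar RNA SNORA4. With EIF3K, EIF3L, EIF4E2 and EEF1D counted, 15 of 27 translation factors (55.6%, 35.3 to 74.5%) with a SiHa peak had none in the knockout. That interval holds the 73.0% of all genes.

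Other genes of the pathway were read in the same way. Beside them, 28.6% of protein-coding genes had a SiHa peak, and 47.1% of all genes with a knockout peak had no SiHa peak. The first list held 42 further genes, of translation factors and of other proteins linked to translation. Of these, 17 had a SiHa peak, 12 of them without a knockout peak (70.6%, 44.0 to 89.7%). Peaks in both lists were found in 5, and a knockout peak alone in 6. The 4 strongest by p had SiHa peaks alone: ZNF598, a ubiquitin ligase that senses collided ribosomes (p 1e-186), LARP1, which binds oligopyrimidine starts (p 1.3e-86), EEF1A2, the muscle and neuron form of eEF1A (p 1.3e-52), and GTPBP1 (p 4e-34). Among 28 genes of the eIF2 kinases, the integrated stress response and mTOR control, 16 had a SiHa peak, 11 of them alone (68.8%, 41.3 to 89.0%). Here 5 had peaks in both lists and 5 a knockout peak alone. EIF2AK1, the heme-regulated eIF2 kinase (p 1e-114), and PPP1R15B, a subunit of the eIF2 phosphatase (p 2.5e-86), had SiHa peaks alone. TSC1, an inhibitor of mTOR (p 3.2e-88), and GIGYF2, a partner of EIF4E2 (p 1.3e-39), had peaks in both lists. Among 22 genes of the cytosolic tRNA synthetases and their scaffold, 9 had a SiHa peak, 4 of them alone (44.4%, 13.7 to 78.8%). Here 5 had peaks in both lists and 1 a knockout peak alone. AIMP2 of the scaffold had a SiHa peak alone (p 1e-115), and GARS1 (p 5e-93), AARS1 (p 2.5e-92) and SARS1 (p 4e-72) had overlapping peaks in both lists. The AIMP2 peak lay at the same place as the strongest EIF2AK1 peak, on chromosome 7 near 6023384. The intervals of the 42 further genes, the stress response genes and the synthetases all hold the 73.0% of the whole SiHa list.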

How the data were processed

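The 8 libraries (2 for each of 4 groups) enter only through 2 peak lists. In both lists the authors deposited a p-value for each peak, and in the knockout list also log10 of the p-value and of the false discovery rate, handled here as scores because they run past the usual log range, and a fold enrichment, a ratio with no stated reference. FastQC 0.11.7 and the build GRCh38 (hg38) are named in the submitters' processing notes. Which aligner, peak caller and annotation were used, and how replicates were merged, is not given in the sources used here. A stranded mRNA kit was used, per the labels' protocols.

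From the SiHa list 1 repeated line and 3 peaks off the chromosomes were dropped, and from the knockout list 2 peaks, leaving 12924 and 4557. Gene names came from RefSeq spans of GRCh38.p14. An identifier took a gene's name when at least 90% of its peak bases lay in that span, on its strand where the promoter table gives one (37 of 46 genes; all 46 spans matched by symbol), and when no other identifier or span contested it; 7549 of 9046 identifiers (83.5%) were named. Naming and overlap were tested on simulated peaks of 1 block in gene spans that did not overlap. Several-block peaks and overlapping spans were not covered by it. No test was run, as the peak lists used hold no replicate values. All members were counted by role. Peak values were given for genes with a knockout peak and for the 3 strongest genes with SiHa peaks alone in each role, and up to 4 genes of each pathway list were named by smallest SiHa p. EIF3G and the unsettled genes were added. The members and lists were chosen with earlier results of these data known. Python 3.11.15, pandas 2.3.3 and SciPy 1.17.1 were used.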

Additional observations from a re-analysis of the deposited data

How the results depend on the processing

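No paired analysis was possible because the lists hold no values of single replicates, and no replicate could be left out for the same reason. Over the alternatives, 52 recomputed values were within 1.5 times the reported count, or, for the median, within its 95% interval, and 10 were not. With only peaks of −log10 p above 8, 8 translation factors had a knockout peak, 6 had peaks in both lists, 12 knockout peaks were left, and 4 SiHa peaks in 3 genes were overlapped. The median −log10 p of the SiHa peaks was then 34.1 and was not among the 10. Of 18 translation factors with such a SiHa peak, 12 (66.7%) then had no knockout peak, beside 84.8% of all genes. The 95% interval of the 66.7% has an upper bound of 86.7% and holds the 84.8%, so no difference was seen in this setting. With the SiHa list cut by p to the length of the knockout list, translation factors had 23 SiHa peaks with a median −log10 p of 37.6, and 6 genes had a knockout peak alone. Of 16 translation factors with a SiHa peak in the shorter list, 8 (50%, 24.7 to 75.3%) had no knockout peak. That interval holds the 65.5% of all genes in this setting. With overlap over 50% of both peaks, 2 SiHa peaks in 2 genes were overlapped (5.13%, beside 3.15% of all SiHa peaks). The threshold and the shorter list admit fewer peaks by construction, and the overlap rule admits fewer pairs. The interval of the overlapped share also held that of all SiHa peaks with −log10 p above 8 (4.36 to 34.9%, beside 5.76%) and with the shorter list (7.46 to 43.7%, beside 11.3%). With knockout peaks at a false discovery rate of at most 0.05, EIF3H counted as a gene with a SiHa peak alone. With names given without strand and only where no other span was touched, EIF3G, EIF4E, EIF5 and PABPC4 went unnamed. Of 19 translation factors with a SiHa peak, 10 (52.6%, 28.9 to 75.6%) then had a SiHa peak alone, an interval that holds the 73.0% of all genes. Counting the unsettled genes was chosen after seeing the data. Depth is unknown, so a peak missing from the knockout list may lie below what that list could detect.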

Other observations

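Some peaks of different identifiers shared bases within 1 list, as for PABPC4 and PABPC4-AS1. There only the block of 15 bases of the PABPC4 peak lay within the bounds of the other peak. Of 12924 SiHa peaks, 826 (6.39%) shared bases with a SiHa peak of another identifier on the opposite strand, and 441 of these had exactly the same p as such a partner. In the knockout list this held for 226 peaks (4.96%), 141 of them with the same p. On the same strand, 613 SiHa peaks (4.74%) and 178 knockout peaks (3.91%) shared bases with a peak of another identifier. In the span of EIF4E2, ENSG00000135930 and, on the opposite strand, ENSG00000237126 had SiHa peaks over nearly the same bases, both with a p of 0.0066. Equal deposited p-values also occurred between peaks at different places, since the SiHa peak of EIF3F on chromosome 11 had a p of 0.0066 too. An equal p alone therefore does not show that 2 peaks rest on the same reads.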
